A study of Quercus ilex with 12 samples.

Results

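The values given here are those of 100 contigs that were lower in droughted than in watered leaves of *Q. ilex*, the holm oak, at both samplings of the experiment. A contig is an assembled transcript sequence, and its level is given as TPM, a relative abundance that is scaled for contig length and sums to the same total in every library. A contig was taken where its mean TPM over the 12 libraries was at least 2 and its highest TPM in the 6 drought libraries lay below its lowest TPM in the 6 control libraries. Of 47568 contigs, 23684 reached the mean of 2, and 266 of these (1.12%) also met the condition on drought and control. The 266 contigs were ranked by the ratio of the lowest control TPM to the highest drought TPM, with 0.1 added to both, and the first 100 were kept. The mirrored condition, with every drought library above every control, was met by 379 contigs (1.6%). Because drought against control chose the contigs, that contrast is described here with no test.

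All libraries came from leaves of seedlings 6 months old, grown from germinated acorns. Control seedlings were well watered, and drought was imposed by withdrawing irrigation. Each of the 4 groups (control and drought, first and second sampling) has 3 libraries, which the labels call biological replicates without saying whether a replicate was 1 seedling or a pool. The libraries are named here as in the labels, with S1 or S2 for the sampling, C or D for control or drought, and the replicate number, as in S2D3. On the day of sampling the sources differ, with 20 and 25 days in the labels and 17 and 24 days in the text on the series.

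The total of estimated counts per library ran from 11239487 (S2C3) to 33384307 (S1D3). S1C2, S2C2 and S2D3 stood apart, since their nearest library lay outside their own group by a margin of 0.0438 to 0.0617 in Pearson's r (log2 of library-scaled counts, across contigs). S1C2 and S2C2 were nearest to each other, and the drought library S2D3 was nearest to the control S1C1. Smaller margins of the same kind were found for S1C1 (0.00798) and S1C3 (0.00039), both nearest to S2D3, and for S1D3 (0.00517), nearest to S2D2. The remaining libraries were nearest to a library of their own group. The expression files pair no contig with a gene name, a description or a sequence, so the leaf label could not be checked against marker genes and no function is given to any contig. In these bulk samples, fewer cells of a type and less RNA per cell cannot be told apart.

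Leaves that lose their water supply are known to close their stomata under the hormone abscisic acid, to slow photosynthesis and expansion growth, and to change the transcripts of many genes in both directions. Holm oak is a Mediterranean evergreen whose seedlings meet summer drought in their first year. This is background only, since the contigs described here carry no annotation that would place them in one of these processes.

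The condition was met with a wide gap by few contigs and with a narrow one by most. The ratio of lowest control to highest drought ran from 5.01 at rank 1 to 1.21 at rank 100, with a median of 1.39. It was 2 or more for 10 contigs and under 1.5 for 64. The last contig taken had a lowest control of 77.9 TPM and a highest drought value of 64.6 TPM, and the first one left out, next in rank, had 40.1 and 33.3 TPM (ratio 1.20). The ratios of these neighbours nearly coincide. The group means lay further apart than the ratio shows, since the ratio sets the extremes of the groups side by side. The mean control TPM had a median of 5.23 times the mean drought TPM, and among the 99 contigs above 0 in both drought groups it was 1.51 to 132 times. The upper end is that of rank 3 and rests on few reads, 2 estimated counts in S1D1, 4 in S2D3 and 0 in the other drought libraries. Over all 23684 contigs past the TPM minimum, the median of the same fold was 0.973.

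**Figure D1:**
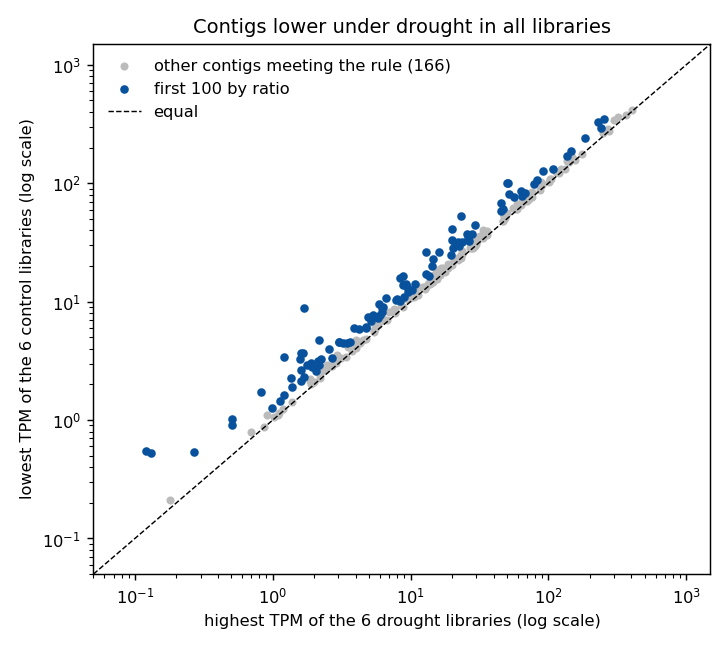
Lowest TPM of the 6 control libraries against the highest TPM of the 6 drought libraries, both on log scales, for the 266 contigs that met the condition. The first 100 by ratio are in blue, the other 166 in grey, and the dashed line marks equal values. Most of the 100 lie close to the line, and the contig at rank 1 stands furthest from it, at a ratio of 5.01.

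At rank 1, contig-4861000008 is 260 bases long. In the first-sampling controls S1C1, S1C2 and S1C3 it had 8.87, 9.61 and 11.1 TPM, and in the second-sampling controls S2C1, S2C2 and S2C3 it had 21.9, 9.43 and 14.3 TPM. In the drought libraries it had 0.630, 1.10 and 0.620 TPM at the first sampling and 1.69, 0.660 and 1.65 TPM at the second. The groups lay far apart at both samplings, and S2C1 was the highest library. Mean levels were 9.86 ± 1.13 against 0.783 ± 0.274 TPM at the first sampling (SD, n = 3) and 15.2 ± 6.27 against 1.33 ± 0.583 TPM at the second. These rest on few reads: S2D1, the highest drought library, held 4 estimated counts and S1C1, the lowest control, 28. The 95% Poisson interval of the count puts the upper bound of S2D1 at 4.33 TPM and the lower bound of S1C1 at 5.89 TPM, so counting error alone leaves a gap here. Such intervals cover counting error only.

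At rank 2, contig-4387000018, 806 bases long, was near 0 in every drought library. It had 4.56, 1.86 and 34.5 TPM in S1C1, S1C2 and S1C3 and 8.87, 0.550 and 2.26 TPM in S2C1, S2C2 and S2C3. It was at 0 in all 3 first-sampling drought libraries and at 0.080, 0.120 and 0 TPM in S2D1, S2D2 and S2D3. The controls thus spread over a wide range, with S1C3 high and S2C2 low, and the drought libraries held 1, 2 and 0 counts at the second sampling. No fold is given for this contig, since its drought group of the first sampling held no read. For S2D2 the 95% Poisson interval reached up to 0.433 TPM and for S2C2 down to 0.264 TPM, so counting error alone could close the gap.

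The contigs at ranks 3 to 10 differed in level and in the spread of their controls. Rank 3 had 2.74, 0.570 and 0.530 TPM in the first-sampling controls, 14.5, 0.540 and 6.21 TPM in those of the second, and at most 0.130 TPM in any drought library. Rank 4 was high in S1C2 (24.7 TPM) and S2C2 (30.0 TPM) and lay at 3.44 to 3.77 TPM in the other 4 controls, against 0 to 1.21 TPM under drought. Its controls thus fell into a high pair and a low set of 4, and the pair are the libraries numbered 2. S1C2 and S2C2 lay above each of the other 4 controls for 9 of the 100 contigs (12.6% of all contigs). By contrast, the contig at rank 5 had higher levels, with 53.1 to 85.6 TPM in the first-sampling controls and 70.7 to 175 TPM in the second. Under drought it had 5.08 to 19.3 TPM at the first sampling and 17.9 to 23.4 TPM at the second. Rank 6 had 3.67 to 5.94 TPM in the first-sampling controls, and at the second sampling 23.4 and 24.7 TPM in S2C1 and S2C3 but 4.48 TPM in S2C2. S2C2 sat with the first-sampling controls for that contig. The contigs at ranks 7 and 8 stayed below 20 TPM everywhere with 0.530 to 1.65 TPM and 1.08 to 2.18 TPM under drought. The contigs at ranks 9 and 10 had control levels of 41.4 to 201 TPM and 26.4 to 159 TPM. Under drought they had 4.66 to 20.0 TPM and 0.600 to 13.0 TPM, with S1D3 the lowest library for both.

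**Figure D2:**
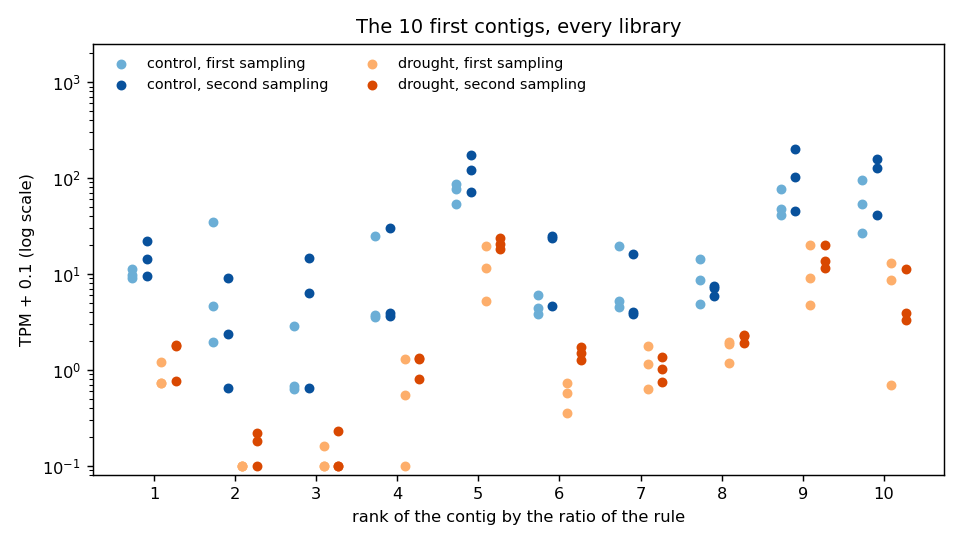
TPM plus 0.1, on a log scale, of the contigs at ranks 1 to 10 in every library, 1 point for each of the 3 libraries of a group. Points at the bottom line are values of 0. Blue points (controls) lie above all orange points (drought) for each contig, as the choice required. The controls of ranks 2 to 10 spread over more than the gap itself.

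The 100 contigs ran from rare to abundant transcripts. Mean control TPM ran from 2.81 to 631, with a median of 23.0. It was under 10 for 28 contigs, 10 to under 100 for 52, and 100 or more for 20. The median fold of control over drought was 7.06, 5.15 and 3.93 in these classes, so the median fold was largest in the rarest class. Rarer contigs also rest on fewer reads: 17 of the 28 in the lowest class had under 1000 estimated counts over the 12 libraries together, against 3 of the 52 and 0 of the 20 in the others. The mean over the 12 libraries, a level in TPM, had a median of 14.1 among the 100 contigs and 12.9 among all contigs past the minimum. Length was not used to choose them, and it ran from 248 to 3523 bases with a median of 928, against a median of 1176 bases over all contigs past the minimum. In the class of 100 TPM or more the median length was 697 bases and the longest contig had 1288. These are descriptions with no test, since contigs are not replicates.

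The most abundant contigs of the list were lower under drought and still well above 0. The contig at rank 54, 248 bases long, had 660, 539 and 570 TPM in S1C1, S1C2 and S1C3, 516, 352 and 1151 TPM in S2C1, S2C2 and S2C3, 153, 98.6 and 24.6 TPM in S1D1, S1D2 and S1D3, and 255, 192 and 199 TPM in S2D1, S2D2 and S2D3. Its control mean was 6.39 times the drought mean at the first sampling and 3.13 times at the second. Rank 83 had 171 to 204 TPM in the first-sampling controls and 1045, 255 and 560 TPM in S2C1, S2C2 and S2C3, against 24.8 to 77.9 and 66.3 to 136 TPM under drought. Rank 47 was the steadiest of these, at 327 to 421 TPM in the 6 controls and 141 to 231 TPM in the 6 drought libraries, a 2.07-fold difference of the means. The 5 contigs with the highest mean control TPM made up 31.4% of the summed control level of the list.

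No contig of the list was at 0 in all 6 drought libraries. Of the 100, 88 were above 0 in every drought library and 12 were at 0 in 1 to 4 of them. Only rank 2 was at 0 in all 3 drought libraries of the first sampling. In the library that set the upper drought bound, the estimated count had a median of 173, and 9 contigs had fewer than 10. Setting the 95% Poisson bounds of the highest drought and lowest control library against each other left a gap for 65 of the 100 contigs and none for 35. RSEM, the program that made the counts, divides a read that matches several contigs among them, which leaves a count that is not whole. Counts more than 0.005 from a whole number were found in at least 1 library for 97 of the 100 contigs, against 98.0% of all contigs past the minimum. They made up 64.8% of the 1200 values of the 100 contigs, against 73.0% of the values of all contigs.

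**Figure D3:**
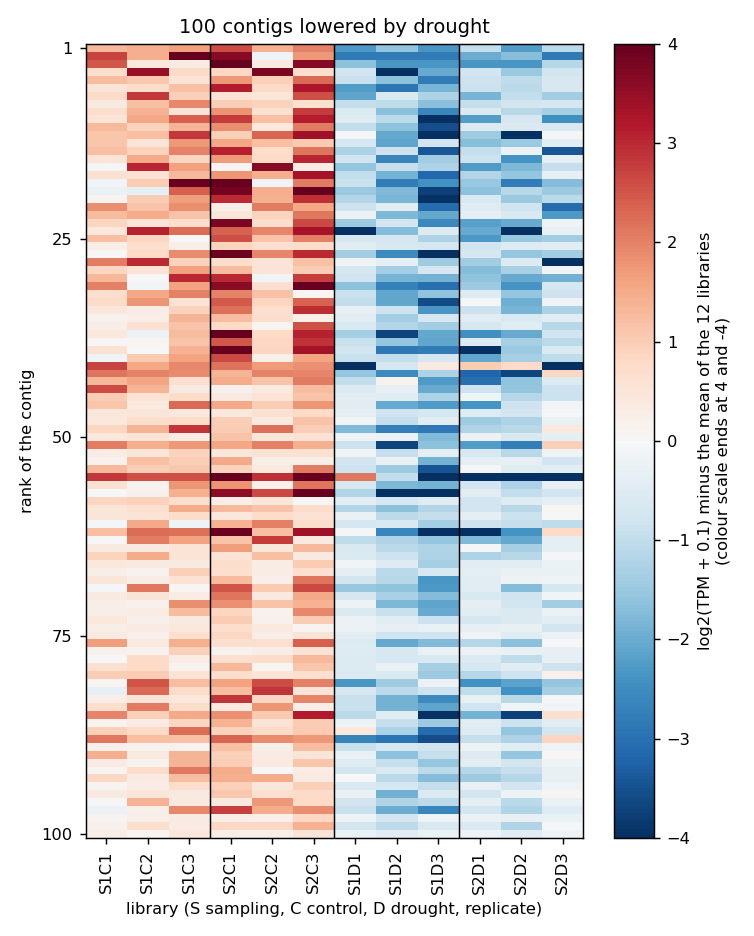
log2(TPM + 0.1) of the 100 contigs, each row a contig in order of rank and centred on its mean over the 12 libraries, each column a library. Red is above and blue below that mean, and the colours end at 4 and -4. S2C1 and S2C3 hold the deepest red among the controls in many rows, S1D3 the deepest blue, and S2D3 is pale.

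Summed over the 100 contigs, the level was 4742, 4770 and 5920 TPM in S1C1, S1C2 and S1C3 and 9905, 4890 and 8863 TPM in S2C1, S2C2 and S2C3. The drought libraries held 2158, 1453 and 1374 TPM in S1D1, S1D2 and S1D3 and 2106, 1842 and 2432 TPM in S2D1, S2D2 and S2D3. S2C1 and S2C3 stood above the other 4 controls, and S2C2 lay among the controls of the first sampling. The groups had means of 5144 ± 672 and 1662 ± 431 TPM at the first sampling and 7886 ± 2646 and 2127 ± 295 TPM at the second (SD, n = 3), which is 0.474% to 0.990% of all transcripts in the controls and 0.137% to 0.243% under drought. The control sum was 3.10 times the drought sum at the first sampling and 3.71 times at the second.

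**Figure D4:**
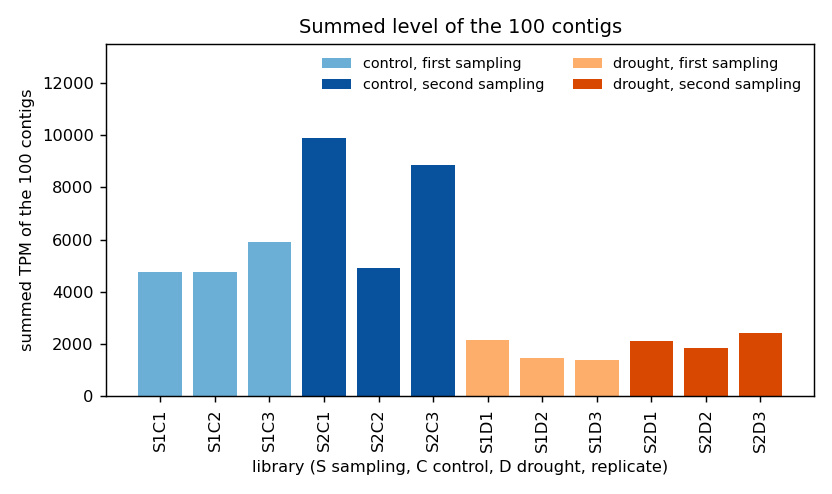
Summed TPM of the 100 contigs in each library, coloured by group, with the axis starting at 0. S2C1 (9905) and S2C3 (8863) are the highest, the other 4 controls lie between 4742 and 5920, and the 6 drought libraries lie between 1374 and 2432.

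A few libraries often set the bounds of the list. The condition is easier to meet with fewer libraries, so counts without a library are not directly comparable with 266. Without each of the 12 libraries in turn they were 280 to 889. S2D3 was the highest drought library for 48 of the 100 contigs, against 26.8% of all contigs past the minimum, and S1D1 for 21 (12.4%). S2D3 is also the drought library whose nearest library was a control. Without S2D3, 889 contigs met the condition in place of 266, and of the first 100 of those only 27 were among the 100 described here. On the control side, the lowest library was S1C1 for 33 contigs, S1C2 for 23 and S2C2 for 18, against 13.7%, 11.5% and 11.6% of all contigs. Without S1C1, 515 contigs met the condition and the first 100 of those shared 50 with the list, and without S1C2 the values were 438 and 64. Without S2D1 they were 423 and 76. Without S1D1, 360 contigs met it and 66 were shared. Without S1C2, S2C2 and S2D3 together, 1685 contigs met it and the first 100 of those shared 11 with the list. These shared counts compare rankings and do not give the contigs of the list that still met the condition. The median fold of the 100 contigs at the second sampling was 4.82 with all libraries, 5.43 without S2D3 and 5.61 without S2D3 and S2C2.

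In a model of the 4 groups over all 33602 contigs with enough counts (edgeR quasi-likelihood test on the estimated counts, Benjamini-Hochberg adjustment over all of them, threshold 0.05), all 100 contigs were tested. The model was used for the changes between the samplings and for the difference between the drought effects. Drought against control is given from it only as a median log2 change of the 100 contigs, -2.16 at the first sampling and -2.51 at the second, against -0.04 and 0.04 over all contigs.

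The median fold of control over drought was 4.77 at the first sampling and 4.82 at the second, against 1.09 and 0.821 over all contigs past the minimum. The fold was larger at the second for 56 contigs and at the first for 44, and it was larger at the second for 33.9% of all contigs. Without S1C2, S2C2 and S2D3 it was larger at the second for 70 of the 100, and the share of all contigs was not worked out for this. The difference between the drought effects of the samplings was tested in the same model. It was called for 0 of the 100 contigs (0% of all contigs, in each direction). The choice did not rank on this difference, but it made both drought effects negative and so limits it. All contigs were not limited in this way, so their shares stand beside these for description only. At an unadjusted p under 0.05, 5 of the 100 had a stronger and 2 a weaker fall at the second sampling, against 3.83% and 5.34% of all contigs, and DESeq2 called 1 stronger and 0 weaker (0.531% and 0.82% of all contigs). The shares lie near those of all contigs. The log2 difference was below 0 for 74 of the 100 contigs, with a median of -0.48, against 48.0% and a median of 0.05 over all contigs. On the TPM scale (limma-trend, log2(TPM + 1)) the median of all contigs was 0.24 and that of the 100 contigs -0.13. Above 0 were 42 of the 100, against 63.2% of all contigs.

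The strongest departure from an equal fall was that of the contig at rank 55. It had 103, 86.8 and 88.2 TPM in S1C1, S1C2 and S1C3 and 63.0, 7.34 and 0.170 TPM in S1D1, S1D2 and S1D3. At the second sampling it had 478, 112 and 233 TPM in S2C1, S2C2 and S2C3 and 0.270, 0.280 and 0.480 TPM in S2D1, S2D2 and S2D3. S1D1 was thus nearest to the controls, S1D3 was already near 0, and by the second sampling all drought libraries were. The log2 difference of the drought effects was -8.02 (SE 1.95, edgeR adjusted p = 0.483), and within the drought group the contig changed by -6.06 (SE 1.54, edgeR adjusted p = 0.71) between the samplings. Both missed the threshold. The contig at rank 88 went the other way under drought, with 0.14, 0.10 and 0.030 TPM in S1D1, S1D2 and S1D3 and 0.700, 0.550 and 2.68 TPM in S2D1, S2D2 and S2D3 (log2 change 4.0, SE 0.80, edgeR adjusted p = 0.394). Its first-sampling drought libraries held only 3.41, 2.25 and 1.14 estimated counts, and those of the second 13.4, 13.4 and 64.9, with S2D3 the highest. Its second-sampling drought libraries all lay above those of the first and below the lowest control of 3.37 TPM.

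Between the samplings, most of these contigs had a higher fitted level in watered leaves at the second, and none passed the test. This comparison was not used to choose them, but the choice used the same control levels, since every control had to stay above every drought library. Contigs where a second-sampling control fell to the drought levels were thus left out, and S2C1 was the lowest control for 35.5% of all contigs. All contigs were not limited in this way, so their shares and medians stand beside these for description only. The fitted log2 change from the first to the second sampling in the controls was above 0 for 90 of the 100 contigs, with a median of 0.76, against 45.0% of all contigs and a median of -0.12. The adjusted threshold was passed by none (edgeR: 0 of 100 higher or lower, against 0.00893% and 0.0119% of all contigs). At an unadjusted p under 0.05, 28 were higher and 0 lower, against 8.95% and 8.09% of all contigs, and DESeq2 called 14 higher (5.35% of all contigs) and 0 lower (2.97%). On the TPM scale the median change of all contigs between the controls was -0.31 (log2(TPM + 1), limma-trend) and that of the 100 contigs 0.37. Above 0 were 74 of the 100, against 31.9% of all contigs. The direction was the same with both scalings.

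S2C1 and S2C3 had the higher levels, a pattern chosen for description after the values were seen. The choice bears on these counts, since it left out contigs where a control fell to the drought levels. S2C1 was the lowest control for 35.5% of all contigs and for 8 of the 100, and S2C3 for 18.1% and 7. Both lay above S2C2 for 66 of the 100 contigs (32% of all contigs) and below it for 16 (48.2%). Both lay above each of the other 4 controls for 40 contigs (14.5%). All 3 second-sampling controls lay above all first-sampling ones for 8 contigs (5.56%) and below them for 1 (19.1%). S2C2 is one of the libraries that stood apart from their group. Without it edgeR called 15 of the 100 higher at the second sampling (4.38% of all contigs) and 0 lower (4.37%), and without S1C2, S2C2 and S2D3 together it called 9 higher (4.61%) and 0 lower (4.93%). The median change was 0.93 in both cases.

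The contig at rank 37 had the largest fitted change in watered leaves. It had 7.18, 4.58 and 13.0 TPM in S1C1, S1C2 and S1C3 and 719, 9.49 and 46.0 TPM in S2C1, S2C2 and S2C3, against 0.320 to 3.03 TPM in the drought libraries. Most of its level in the second-sampling controls came from S2C1, and S2C2 lay within the range of the first sampling (log2 change 5.37, SE 1.42, edgeR adjusted p = 0.151). The lowest change was that of contig-4387000018, whose level was high in S1C3 alone (log2 change -1.45, SE 1.29, edgeR adjusted p = 0.598). For contig-4861000008 the change was 0.96 (SE 0.61, edgeR adjusted p = 0.436).

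In drought leaves the fitted changes between the samplings had a smaller median. The log2 change was above 0 for 73 of the 100 with a median of 0.34, against 49.5% and -0.01 over all contigs. The choice bears on the counts of this paragraph too, since every drought library had to stay below every control. All contigs were not so limited, and their shares are given for description only. The edgeR test called 0 of the 100 (0% of all contigs higher and 0.00298% lower). At an unadjusted p under 0.05, 3 were higher and 1 lower, against 3.46% and 2.84% of all contigs, and DESeq2 called 1 higher (0.479%) and 1 lower (0.579%). All 3 second-sampling drought libraries lay above all first-sampling ones for 12 contigs (8.16%) and below them for 2 (5.98%). S1D3 was the lowest drought library for 49 of the 100 contigs, against 19.9% of all contigs, and S2D3 lay above both S2D1 and S2D2 for 62, against 39.9%. Without S2D3 the median change in drought leaves was 0.14, and without S1D1 it was 0.60.

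The contigs of the list tended weakly to vary together from library to library. After the mean of each group was taken off log2(TPM + 0.1), the correlation over the 12 libraries had a median of 0.27 over the 4950 pairs of the 100 contigs. Over pairs of 4737 contigs, taken at even steps from those past the minimum, the median was 0.02. The points share libraries, depth and group means, and this is a description with no test. The choice used the same TPM values and bears on these correlations. It limits how far a control can fall or a drought library rise, and pairs of all contigs were not limited in this way. A correlation of 0.9 or more was found for 29 pairs (0.586% of them, against 0.229% of all pairs), which joined 26 of the 100 contigs. The contig at rank 68 was in the most such pairs, 6, and the highest value was 0.962, between the contigs at ranks 27 and 86. Within the drought libraries alone the median correlation over pairs was 0.38 and within the controls 0.22. The median coefficient of variation between replicates was 0.364 and 0.478 in the first- and second-sampling controls (0.332 and 0.438 for all contigs) and 0.486 and 0.342 in the drought groups (0.273 and 0.342 for all contigs). The median was thus above that of all contigs in the first-sampling drought group, and since the 100 contigs had a median level of only 4.78 TPM over the drought libraries, the part of low levels in this was not tested.

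Choosing on 1 sampling and reading the other gives the same measure in libraries that the choice did not use. The condition was applied to the 6 first-sampling libraries alone, with the mean of 2 TPM over those 6, and it was met by 3907 contigs. Of the first 100 by ratio, 19 had all second-sampling drought libraries below all second-sampling controls, against 8.39% of the 24183 contigs past that minimum, and 2 had them all above, against 18.5%. The mean drought level was below the mean control level for 67 of the 100 (38% of all), and the median log2 change was -0.65 against 0.30 over all contigs. Chosen on the second sampling, where 2176 contigs met the condition, 19 of the first 100 did not overlap and were lower at the first sampling, against 16.9% of the 22870 contigs, a share near that of all contigs, and 0 were higher without overlap, against 9.85%. The mean drought level was lower for 84 of them (58.1% of all), and the median log2 change was -1.47 against -0.14. Of these lists 7 and 8 contigs were among the 100 described above. Single libraries moved these counts. Where the library belonged to the sampling of the choice, the choice was made again without it. Where it belonged to the other sampling, the same 100 contigs were read with 1 library fewer, which makes the condition easier to meet. Without S2D3, 68 of the 100 chosen on the first sampling lay lower without overlap at the second (15.4% of all contigs), and 33 of those chosen on the second did so at the first (16.8%). Without S1C1 the counts were 7 (8.43%) and 37 (22.9%). Without S1C2 they were 8 (8.15%) and 27 (26.5%), and without S1D1 34 (8.47%) and 37 (22.7%). For the list chosen on the first sampling the share thus lay near that of all contigs without S1C1 or S1C2. Without S1C1 the mean drought level at the second sampling was lower for 30 of the 100, against 38.1% of all contigs, and without S1C2 for 41, against 37.2%.

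**Figure D5:**
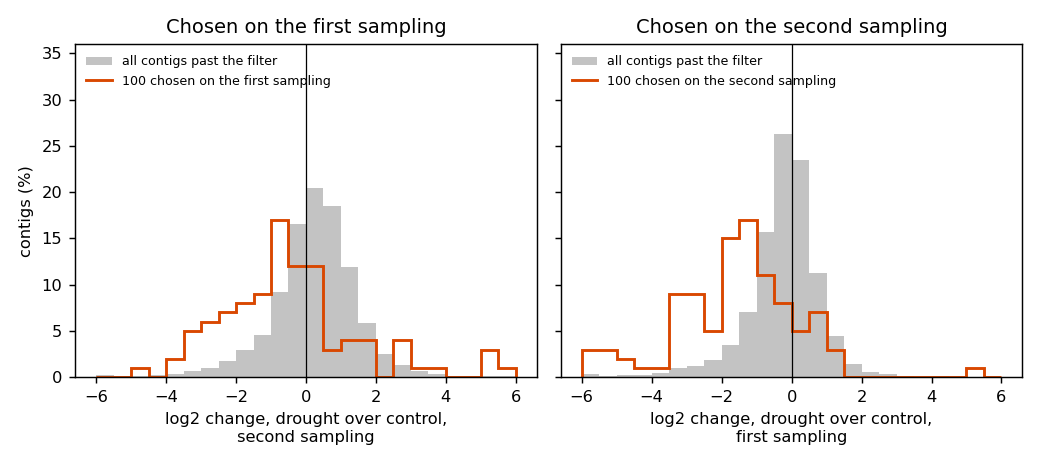
log2 change of mean TPM + 0.1, drought over control, in the sampling not used for the choice. The outline gives the share in percent of the 100 contigs chosen on the first (left) or second (right) sampling, and the grey area that of all contigs past the TPM minimum, with values beyond 6 and -6 set into the end bins. The outlines lie to the left of the grey areas, with medians of -0.65 against 0.30 and -1.47 against -0.14.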

How the data were processed

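Leaf RNA was measured in 12 libraries, 3 in each of 4 groups, which the titles and characteristics in the labels define. The authors' processing notes name cutadapt 1.9 and RSEM. For the assembler and aligner, and for the version of RSEM, the sources used here give nothing. The authors' estimated counts are reads assigned by RSEM to a contig, with no scaling. In the deposited TPM, contig length is taken into account and each library has the same total. The deposited FPKM, used only as an alternative, is per length and fragments.

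The contigs were chosen from TPM as the report states. Estimated counts were rounded and tested with edgeR 4.0.16 (R 4.3.3): TMM normalization, filterByExpr with the groups (33602 contigs remained), and 1 quasi-likelihood fit over all 12 libraries. The standard error is the log2 change divided by the square root of F. The common biological coefficient of variation was 0.685. The scripts were tested on simulated data. Other settings tried were RLE size factors, limma-trend (limma 3.58.1, log2 of TPM with a pseudocount of 1 or 0.1), DESeq2 1.42.0, other filters, a replicate block, fits of fewer libraries, and other units, minimums and pseudocounts in the choice. Identifiers were printed for ranks 1 and 2 only, and other contigs were described by rank: 3 to 10, the 3 most abundant in controls, and the largest changes with time. Members and lists were chosen with earlier results of these data known. No replicate pair agreed within the sampling noise (lowest chi-square per degree of freedom 70.2). P-values measure the spread between these libraries.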

Additional observations from a re-analysis of the deposited data

How the results depend on the processing

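The choice of contigs moved more without some single libraries than with another unit, though a condition on fewer libraries is easier to meet. Leaving out each library in turn gave 280 to 889 contigs meeting the condition. Of the 100, 27 to 94 were kept, which here means that they were among the first 100 of the new ranking. Without S1C2, S2C2 and S2D3 together 1685 met the condition and 11 were kept. TMM-scaled CPM kept 76 of the 100, FPKM 92, and a ranking pseudocount of 1 or 0.01 kept 98 and 99. A minimum of 1 or 5 TPM kept 91 and 75, and no minimum 71. Among contigs chosen on 1 sampling, those lower without overlap in the other numbered 7 to 68 (chosen on the first) and 13 to 37 (second) without single libraries, where the share of all contigs was 8.15% to 17.0% and 16.7% to 26.5%. Without those 3 libraries, an alternative added after seeing the data, they numbered 60 and 40, against 23.6% and 26.1% of all contigs. The calls with time and between samplings, in both directions, were 0, 0 and 0 for controls, drought and the difference (0.0208%, 0.00298% and 0% of all contigs). With DESeq2 they were 14, 2 and 1 (8.32%, 1.06% and 1.35%). Without single libraries the controls gave 0 to 15 (0% to 8.75% of all contigs). The drought group and the difference gave 0 to 0 (0% to 0.0226% and 0% to 0.0113%). Without the 3 libraries the controls gave 9, near the share of all contigs (9.54%). The cause of these changes was not tested. For contig-4861000008 the difference of drought effects reversed to 0.10 with limma-trend on log2(TPM + 0.1) and ran from -0.52 to 0.20 without single libraries, and for contig-4387000018 the change of the controls ran from -3.01 to 0.77. None of these was called. With the replicate block 0 of the 100 were called in any of the 3 comparisons and the median change of the controls was 0.74. Equal numbers were not taken to pair libraries, since of 18 correlations between same-numbered libraries 6 were above 0.1 (range -0.11 to 0.21), and 6 of 12 libraries correlated best with their own number. The spread between only 3 libraries a group limits what these tests can show.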
